A study of Mus musculus with 18 samples.

Results

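The 8 genes described here encode hormones and hormone-binding proteins that the liver releases in response to fasting, feeding or nutrient stress. They were taken by name (Fgf21, Gdf15, Angptl4, Angptl8, Leap2, Igfbp1, Igfbp2 and Inhbe) from the 54532 genes of both expression tables, and all 8 were present in both. The set was selected on FPKM differences between the diets seen in earlier results of these livers. Differences of its genes between groups are therefore a description, and no p-value is printed for them. Limma calls of these genes, where given below, use the same values and lend the differences no support. RNA was sequenced from whole livers of 18 male wild-type C57BL/6J mice, all fasted overnight before harvest, with 1 library per mouse. Mice were put on their diets at 4 weeks of age. Without fenofibrate, 5 mice received an isocaloric control diet (Ctrl) and 5 a diet lacking 99% of the riboflavin (B2D), each for 1 month. With fenofibrate (FF), an agonist of the nuclear receptor PPARα, 4 mice received the control diet (Ctrl+FF) and 4 the deficient diet (B2D+FF) for 9 weeks, with daily gavage of the drug in weeks 7 to 9 and the last dose 2 hours before harvest. Riboflavin (vitamin B2) is the precursor of the flavin cofactors FMN and FAD, and the comparisons ask how its depletion alters the fasted liver and the response to a PPARα agonist. Drug, age, time on diet and table all differed between the experiments and cannot be told apart, so levels of different tables are only set side by side.

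During a fast, the liver adjusts the rest of the body through secreted proteins as well as through glucose and ketone bodies. FGF21 acts on tissues that carry its co-receptor β-Klotho and is induced in liver by PPARα and by the stress-responsive transcription factor ATF4. GDF15 lowers food intake through a receptor in the hindbrain, and LEAP2 blocks the ghrelin receptor and is normally lower in fasting than after a meal. IGFBP1 and IGFBP2 bind insulin-like growth factors in blood, and transcription of Igfbp1 is repressed by insulin through FOXO factors. ANGPTL4 and ANGPTL8 inhibit lipoprotein lipase in fasted and fed states, respectively, while Inhbe encodes the βE subunit of activin E, a hepatokine that restrains fat breakdown in adipose tissue.

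The genes lay on 7 chromosomes of the GRCm38 build given in the tables. Fgf21 (ENSMUSG00000030827) lay at chr7:45613886-45615490 on the minus strand, Gdf15 (ENSMUSG00000038508) at chr8:70629393-70632456 on the minus strand and Leap2 (ENSMUSG00000036216) at chr11:53422181-53423170 on the minus strand. Igfbp1 (ENSMUSG00000020429) lay at chr11:7197782-7202546 and Igfbp2 (ENSMUSG00000039323) at chr1:72824503-72852474, both on the plus strand. Angptl4 (ENSMUSG00000002289) lay at chr17:33773750-33781575 on the minus strand. Angptl8 (ENSMUSG00000047822) at chr9:21835510-21837347 on the plus strand sits inside Dock6 on the opposite strand, and Inhbe (ENSMUSG00000047492) at chr10:127348857-127354411 on the minus strand is overlapped by the antisense gene Gm47200. The strand setting of the counting is not given in the sources used here, so reads of these overlapping pairs may not have been separated.

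Promoter sequence is shown because several of these genes are known targets of the same stress and fasting factors. RefSeq promoter windows on GRCm38.p6 matched 6 of the 8 genes, with Angptl4 and Leap2 not matched, and the 250 bases before each start were searched on both strands. The composite ATF4 element TGATGNAA occurred in 3 of the 6 genes (Fgf21, Angptl8 and Inhbe). Its share was 3.91% of all 27025 genes with a window and 3.45% of all 32851 windows. The insulin response element CAAAACAA, a FOXO site, occurred in Igfbp1, in 2.54% of genes and in 2.21% of windows. A direct repeat of AGGNCA with 1 base between the copies is the form bound by PPARα. It occurred in Gdf15, in 0.4% of genes and in 0.338% of windows. The E-box CACGTG occurred in Fgf21, Igfbp2 and a second window of Gdf15, in 6.86% of genes and in 6.02% of windows. Its match in Gdf15 lies inside an annotated exon of that gene. No motif match overlapped another. The motifs were chosen after the sequences were seen, and a match describes letters, not a bound site. The stretches below are RefSeq sequence read 5′ to 3′ along the gene, with the motif in capitals (in Fgf21 and Inhbe it lies on the opposite strand and reads TTGCATCA):
Fgf21, chr7:45615582-45615669, minus strand: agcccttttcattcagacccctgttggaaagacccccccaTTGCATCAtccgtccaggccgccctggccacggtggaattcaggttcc
Angptl8, chr9:21835340-21835427, plus strand: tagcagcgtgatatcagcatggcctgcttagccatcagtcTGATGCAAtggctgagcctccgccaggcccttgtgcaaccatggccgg
Inhbe, chr10:127352011-127352040, minus strand: catcctctttcTTGCATCAtgcatgtccac
Igfbp1, chr11:7197639-7197726, plus strand: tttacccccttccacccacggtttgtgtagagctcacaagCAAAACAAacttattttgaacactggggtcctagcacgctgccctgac
Gdf15, chr8:70632459-70632551, minus strand: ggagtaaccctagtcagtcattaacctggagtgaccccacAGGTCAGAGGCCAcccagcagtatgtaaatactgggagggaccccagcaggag

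Counted from the RefSeq start, the ATF4 element lay at -139 to -132 in Fgf21, -130 to -123 in Angptl8 and -181 to -174 in Inhbe. The FOXO element lay at -108 to -101 in Igfbp1 and the direct repeat at -55 to -43 in Gdf15. The window of Inhbe lies inside an exon that the annotation of the tables begins further upstream, and the tables count Inhbe over 5319 bases, so its level per length depends on the gene model.

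Expression is given as FPKM, the fragments counted on a gene divided by its length in kilobases and by a library size. Between 15320729 and 21898502 reads per library fell on genes, and Pearson correlations of log2(FPKM + 1) within a group were between 0.979 and 0.994. Values were compared within each table by limma on log2(FPKM + 1) for genes whose FPKM averaged 0.5 or more, and for weakly expressed genes a log2 fold change on this scale is smaller than the change itself. Markers of hepatocytes summed to between 18730 and 46340 FPKM. Marker sums of Kupffer cells and macrophages were from 78.0 to 100.5 FPKM in Ctrl and 58.9 to 91.8 in B2D, and from 65.1 to 112.8 in Ctrl+FF and 40.5 to 104.4 in B2D+FF, with 6 of the 7 genes at a lower mean log2 value on the deficient diet in each comparison. Neutrophil markers (3 genes, of which Ly6g was at or near 0) summed to between 0.431 and 1.66 FPKM in Ctrl and 1.64 and 5.31 in B2D, and to between 1.87 and 3.497 in Ctrl+FF and 1.68 and 10.96 in B2D+FF. Lymphocyte markers summed to at most 2.45. Adipocyte markers summed to 7.46 FPKM in B2D mouse 2 and 2.80 in Ctrl+FF mouse 1 and to at most 0.413 in the other 16 mice, and without B2D mouse 2 the log2 fold changes of the ANGPTL genes below were 0.25 for Angptl4 and -0.07 for Angptl8. The part of these cell types in the other results was not tested, and in bulk liver fewer cells of a type and less RNA per cell cannot be told apart.

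The levels of the 8 genes spanned a wide range. Igfbp2 was the most abundant in all 4 groups, with means from 514 FPKM in Ctrl+FF to 928 in Ctrl, and its mice did not overlap those of the next gene, Igfbp1, in any group. Angptl4 followed Igfbp1 in Ctrl, B2D and B2D+FF, whereas Leap2 took that place in Ctrl+FF and overlapped both neighbors. Gdf15 was the lowest of the 8 in Ctrl and B2D, where it did not overlap the gene above it. In Ctrl+FF the lowest was Fgf21, whose mice overlapped those of Gdf15, and in B2D+FF it was Angptl8. Within its own group, the mean of Fgf21 lay above that of 81.0% of the genes tested in Ctrl and 40.9% in Ctrl+FF, compared with 85.9% in B2D and 84.0% in B2D+FF.

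**Figure D1:**
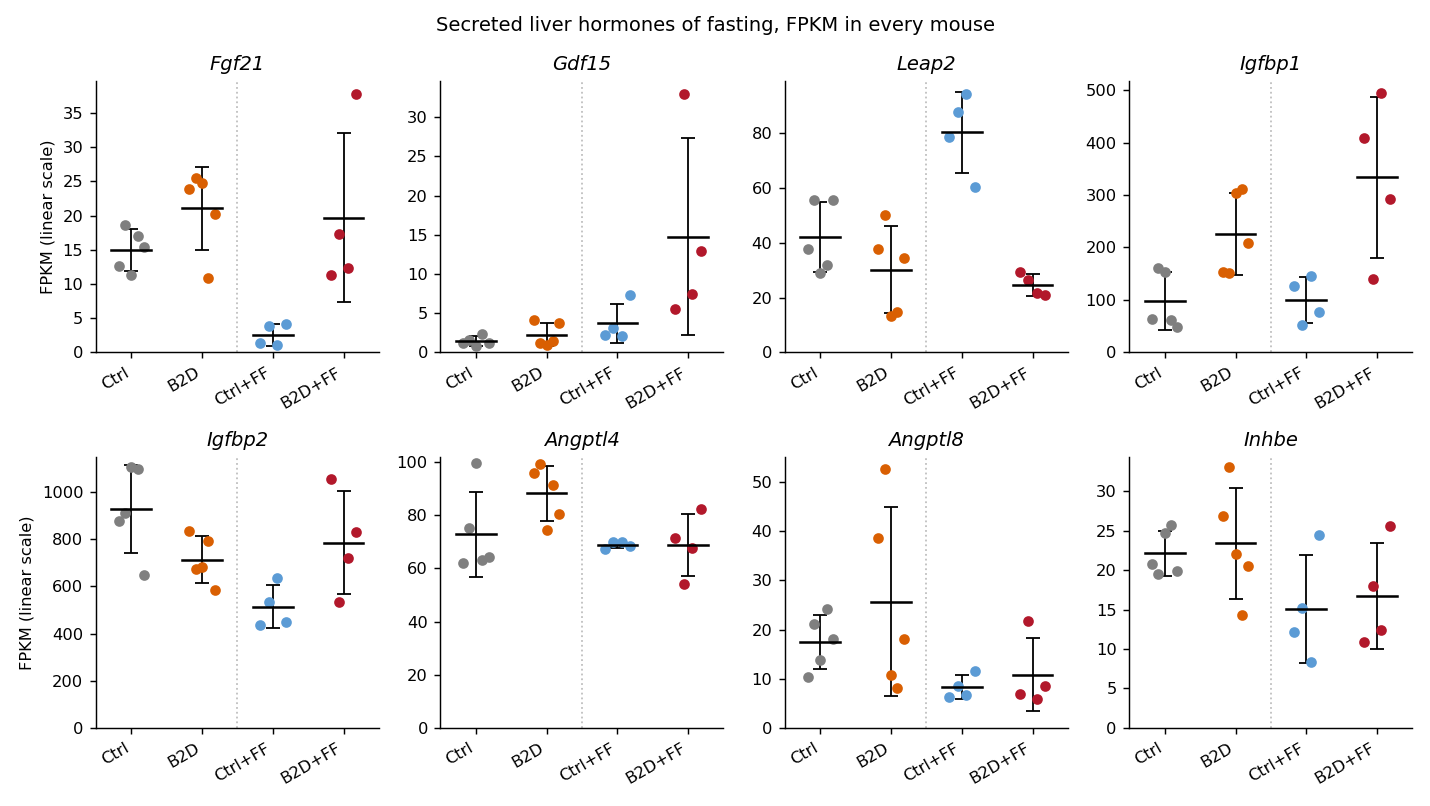
FPKM (vertical axis, linear, from 0) of the 8 hormone genes in each mouse of the 4 groups, with 1 point per mouse, the group mean as a horizontal line and the SD as a bar. The dotted line separates the tables without and with fenofibrate. With fenofibrate, the B2D+FF mice all lie above the Ctrl+FF mice for Fgf21 and below them for Leap2, and the diets overlap for the other 6 genes.

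Without fenofibrate, Fgf21 was at 12.6, 18.7, 11.4, 16.9 and 15.3 FPKM in the 5 Ctrl mice and at 23.9, 25.5, 24.7, 10.9 and 20.3 in the 5 B2D mice. B2D mice 1, 2, 3 and 5 lay above every Ctrl mouse and B2D mouse 4 lay below all of them. The means were 15.0 ± 3.03 and 21.1 ± 6.03 (SD, n = 5 each), with a log2 fold change of 0.43 ± 0.22 (SE). With fenofibrate, the 4 Ctrl+FF mice held 1.28, 3.83, 1.09 and 4.09 FPKM and the 4 B2D+FF mice 11.3, 17.3, 12.4 and 37.9. All B2D+FF mice were above all Ctrl+FF mice, and Fgf21 was as low as 18 reads in a Ctrl+FF library. The means, 2.58 ± 1.61 and 19.7 ± 12.4 (SD, n = 4 each), differed by 7.66-fold, and the log2 fold change was 2.49 ± 0.41 (SE). It was 2.13 without B2D+FF mouse 4, the highest of its group.

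Gdf15, the stress-induced hormone of the TGF-β superfamily, was low without fenofibrate, at 1.24, 1.58, 0.739, 2.37 and 1.19 FPKM in Ctrl and 4.11, 1.17, 0.892, 1.42 and 3.72 in B2D. Only B2D mice 1 and 5 exceeded the highest Ctrl mouse, and the log2 fold change of 0.34 ± 0.28 (SE) was 0.14 without B2D mouse 1. With fenofibrate, the levels were 2.21, 3.15, 2.11 and 7.36 FPKM in Ctrl+FF and 5.52, 33.0, 7.44 and 12.99 in B2D+FF. The diets overlapped between Ctrl+FF mouse 4 and B2D+FF mouse 1, while the other 3 B2D+FF mice lay above all Ctrl+FF mice. The means were 3.71 ± 2.48 and 14.7 ± 12.6 (SD, n = 4 each), with a log2 fold change of 1.56 ± 0.50 (SE) that fell to 1.09 without B2D+FF mouse 2.

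Leap2, which encodes the antagonist of the ghrelin receptor, was at 37.7, 55.7, 29.0, 32.1 and 55.7 FPKM in Ctrl and 37.8, 50.3, 13.3, 14.8 and 34.6 in B2D. B2D mice 3 and 4 lay below the lowest Ctrl mouse and the other 3 within the Ctrl range, for a log2 fold change of -0.59 ± 0.35 (SE) that was -0.35 without B2D mouse 3 and -0.39 without B2D mouse 4. With fenofibrate, Ctrl+FF mice held 78.6, 87.8, 94.5 and 60.6 FPKM and B2D+FF mice 29.2, 26.3, 21.5 and 20.9. The highest B2D+FF mouse was thus far below the lowest Ctrl+FF mouse, and both groups were tight, with coefficients of variation of 18.3% and 16.3%. The log2 fold change was -1.67 ± 0.16 (SE), between -1.80 and -1.59 in the 8 fits that each left out 1 library.

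Igfbp1, whose product binds insulin-like growth factors acutely in fasting, had the largest difference of the 8 without fenofibrate. It was at 62.8, 160, 154, 62.3 and 47.6 FPKM in Ctrl and 153, 150, 304, 312 and 209 in B2D. Ctrl mice 2 and 3 reached the level of B2D mice 1 and 2, so the diets overlapped, with B2D mice 3, 4 and 5 above all Ctrl mice. The means were 97.4 ± 54.8 and 226 ± 78.5 (SD, n = 5 each) and the log2 fold change was 1.31 ± 0.36 (SE). With fenofibrate, the levels were 126, 51.9, 146 and 75.8 FPKM in Ctrl+FF and 409, 140, 495 and 292 in B2D+FF, and only B2D+FF mouse 2 lay within the Ctrl+FF range. The log2 fold change was 1.70 ± 0.43 (SE) and rose to 2.07 without that mouse.

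The mean of Igfbp2 was lower on the deficient diet without fenofibrate and higher with it. The Ctrl mice were at 876, 911, 1105, 1095 and 650 FPKM and the B2D mice at 834, 672, 682, 794 and 584. All 5 B2D mice were below the Ctrl mean of 928 ± 187 (SD, n = 5), but 4 of them lay within the Ctrl range, and the log2 fold change was -0.36 ± 0.16 (SE), or -0.19 after quantile normalization. With fenofibrate, the Ctrl+FF mice were at 436, 533, 635 and 450 FPKM and the B2D+FF mice at 1055, 534, 719 and 829. B2D+FF mice 1, 3 and 4 were above all Ctrl+FF mice and mouse 2 within their range, for a log2 fold change of 0.58 ± 0.21 (SE).

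The ANGPTL genes differed less between the diets. Angptl4, a PPARα target, was at 61.9, 75.3, 99.8, 63.2 and 64.2 FPKM in Ctrl and 95.9, 99.2, 74.5, 91.3 and 80.4 in B2D, with a log2 fold change of 0.29 ± 0.15 (SE). Ctrl mouse 3 was above all B2D mice, and the other 4 Ctrl mice were within or below the B2D range. With fenofibrate, Ctrl+FF mice spanned only 67.4 to 69.9 FPKM, a coefficient of variation of 1.77%, and B2D+FF mice spanned 54.1 to 82.5 around the same mean. The log2 fold change was -0.01 ± 0.12 (SE). Angptl8, which is raised by feeding and insulin, varied most in B2D, where its mice held 38.5, 52.7, 10.7, 8.16 and 18.1 FPKM against 10.4, 21.1, 13.8, 24.2 and 18.02 in Ctrl. B2D mice 1 and 2 lay above the Ctrl range and mouse 4 below it. With fenofibrate, it was at 6.27, 8.43, 6.65 and 11.6 FPKM in Ctrl+FF and 6.92, 21.8, 5.87 and 8.63 in B2D+FF. Its log2 fold changes of 0.26 ± 0.44 and 0.21 ± 0.35 (SE) became -0.07 without B2D mouse 2 and -0.16 without B2D+FF mouse 2, and the first was 0.56 without B2D mouse 4.

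Inhbe was at 20.8, 19.6, 24.7, 25.7 and 19.9 FPKM in Ctrl and 26.8, 33.1, 22.1, 14.4 and 20.5 in B2D. With fenofibrate, it was at 12.2, 15.2, 8.40 and 24.5 FPKM in Ctrl+FF and 10.8, 17.96, 12.4 and 25.6 in B2D+FF. The diets overlapped in both experiments, and the log2 fold changes were 0.03 ± 0.19 and 0.16 ± 0.33 (SE), each of which turned below 0 when 1 library was left out (-0.10 without B2D mouse 2 and -0.06 without Ctrl+FF mouse 3).

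**Figure D2:**
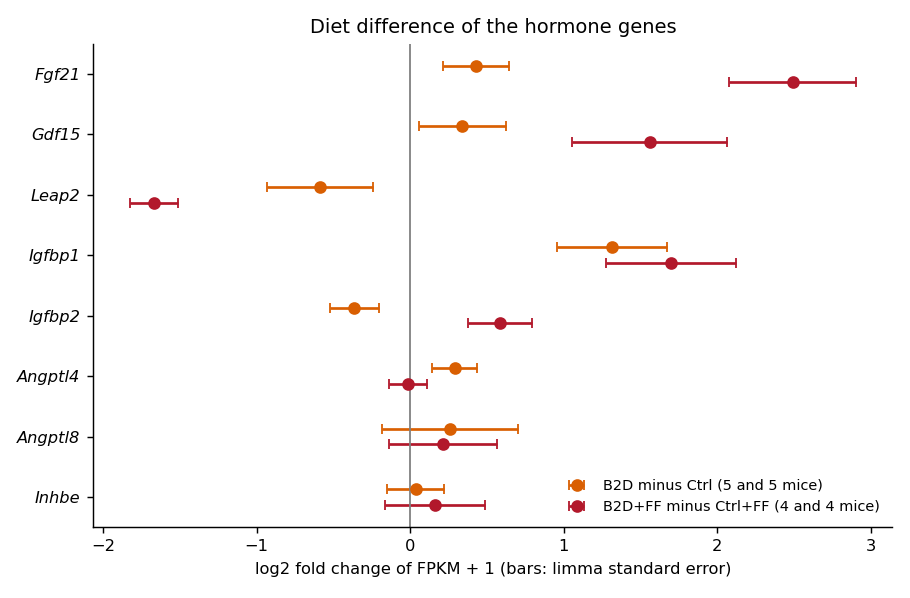
Log2 fold change of FPKM + 1 (horizontal axis) of the 8 hormone genes for B2D minus Ctrl and for B2D+FF minus Ctrl+FF, with limma standard errors as bars. Fgf21 (2.49) and Igfbp1 (1.70) lie farthest to the right and Leap2 (-1.67) farthest to the left, all with fenofibrate, and Igfbp2 is on opposite sides of 0 (-0.36 and 0.58).

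In each comparison 6 of the 8 genes had a log2 fold change above 0. Their median was 0.27 without and 0.40 with fenofibrate, beside medians of -0.001 and 0.01 over all genes tested. At a limma adjusted p under 0.05, 0 of 8 were called without fenofibrate, where 2.7% of 11574 genes were. Igfbp1 and Igfbp2 had an unadjusted p under 0.05, as had 18.4% of all genes, and limma voom on the recovered reads called Igfbp1. With fenofibrate, Fgf21 was called higher and Leap2 lower, 2 of 8 against 4.45% of 11878 genes, and 5 of 8 (these with Gdf15, Igfbp1 and Igfbp2) had an unadjusted p under 0.05, as had 21.2% of all genes. The same genes were the only members whose diets did not overlap, 2 of 8 against 14.3%, while without fenofibrate this held for 0 of 8 against 4.98%. The contrast of both diet effects, with minus without fenofibrate, called 0 of 8, against 0.145% of 11031 genes. Under it, 3 of the 8 (Fgf21, Igfbp2 and Leap2) had an unadjusted p under 0.05, as had 11.9% of all genes, and array weights called Fgf21 and Igfbp2. The contrast was 2.06 ± 0.47 (SE) for Fgf21, 1.22 ± 0.59 for Gdf15, -1.08 ± 0.45 for Leap2 and 0.95 ± 0.27 for Igfbp2. Since the genes were chosen for such differences, nothing about the set is read from these counts. Over all genes, 263 were lower and 266 higher in B2D+FF, and rescaling to 1 upper quartile moved this split to 347 and 213.

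What the choice of genes did not use is how they varied between mice of the same group. For each of the 28 pairs, deviations of log2(FPKM + 1) from the group means were correlated over the 18 mice, with two-sided permutation p-values from 100000 shuffles within groups, adjusted over the 28 pairs. Fgf21 and Inhbe varied together, as Pearson's r was 0.836 (permutation p = 0.00074, adjusted 0.0207) and Spearman's rho was 0.775 (permutation p = 0.00254, adjusted 0.0711), so the pair passed the threshold by r and not by rho. Within the tables, r was 0.651 over the 10 mice without and 0.915 over the 8 mice with fenofibrate. Without the 2 mice farthest from the median in Fgf21, r was 0.760 with an adjusted permutation p of 0.121, so the call rests on those mice. B2D mouse 4 was the lowest of its group in Fgf21, Angptl8 and Inhbe, and B2D mouse 2 the highest in all 3. With fenofibrate, B2D+FF mouse 4 was the highest in Fgf21 and Inhbe, and Ctrl+FF mouse 4 the highest of its group in both.

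The other 27 pairs were not past the threshold by either measure. Angptl8 correlated with Inhbe at 0.616 (adjusted permutation p = 0.102) and with Igfbp1 at -0.607 (adjusted permutation p = 0.102), and Gdf15 correlated with Igfbp1 at -0.601 (adjusted permutation p = 0.119). B2D+FF mouse 2 was the highest of its group in Gdf15 and Angptl8 and the lowest in Igfbp1, Igfbp2 and Angptl4, and its marker sums stood apart as well. It had the lowest sums of its group for Kupffer cells (40.5 FPKM), hepatocytes, endothelial cells, stellate cells, cholangiocytes, lymphocytes and enterocytes, and the highest neutrophil sum of all 18 mice (10.96 FPKM). The enterocyte sum was nearly all Fabp2, the cholangiocyte sum was mostly Spp1, and the lymphocyte sum was only 0.253 FPKM. Those sums therefore say little about these cell types. The part of these differences in the values of the hormone genes was not tested. Without that mouse the log2 fold changes with fenofibrate were 2.496 for Fgf21 and -1.71 for Leap2.

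**Figure D3:**
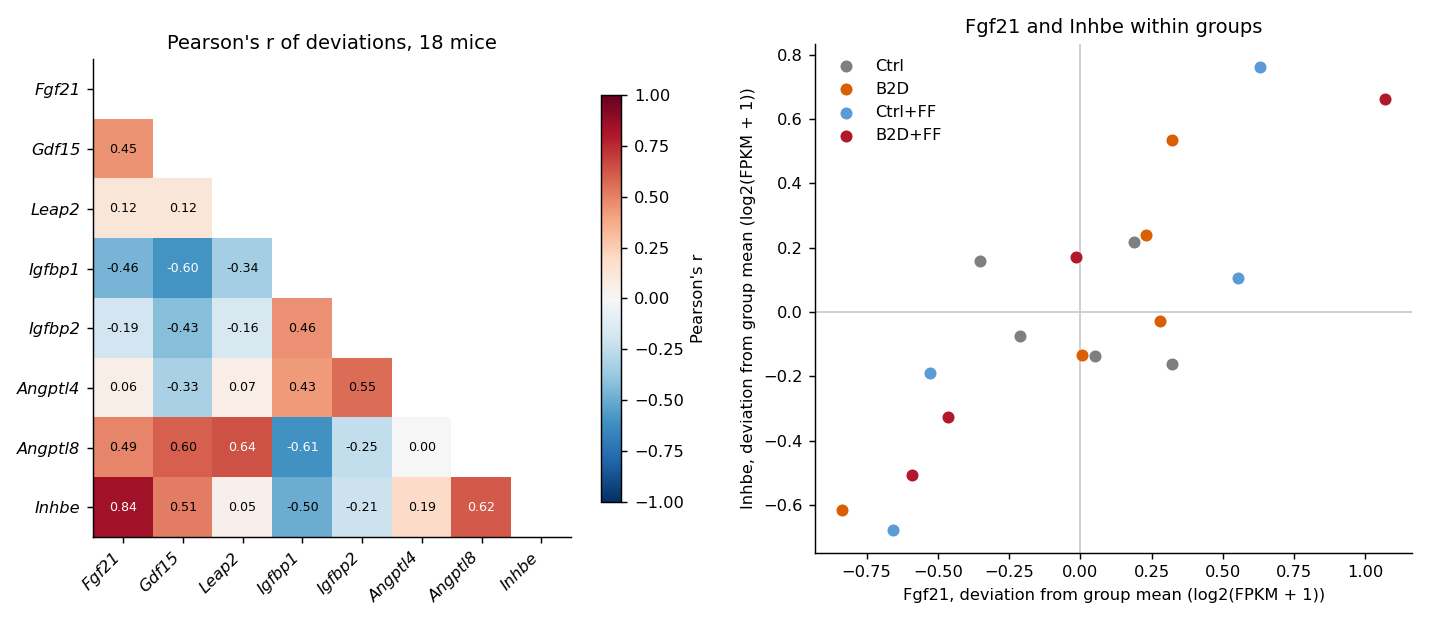
Left, Pearson's r of deviations from the group mean for the 28 pairs of hormone genes over 18 mice (color scale from -1 to 1). Right, deviation of Fgf21 (horizontal) against that of Inhbe (vertical) in each mouse, both in log2(FPKM + 1) and colored by group, where the points run from lower left to upper right with r of 0.836.

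Among 4277 other protein-coding genes whose FPKM averaged 5 or more in each table, the ones closest to each hormone by r of the same deviations over 18 mice are given as a description. Fgf21 was closest to G0s2 (r = 0.720), which encodes an inhibitor of adipose triglyceride lipase, and next to Topors (0.698) and Acbd4 (0.678). Gdf15 was closest to the immediate-early gene Ier2 (0.7996), then Ciart (0.781) and C2cd2l (0.749), and Ier2 was also among the closest to Angptl8 (0.820), after Whamm (0.835) and before H2afz (0.791). Igfbp1 was closest to Eif4ebp3 (0.862), a repressor of translation initiation, then Arl4d (0.792) and Tmlhe (0.776). Angptl4 was closest to Ppa1 (0.883) and to the urea cycle genes Asl (0.843) and Arg1 (0.834). Igfbp2 was closest to Sin3b (0.906), Smim4 (0.864) and Rbp4 (0.863), Leap2 to Fam213b (0.804), Hdhd3 (0.779) and Ttr (0.740), and Inhbe to Esrp2 (0.793), Tob2 (0.765) and Id3 (0.736). All points share their libraries, so depth and composition are common to both sides of each correlation.

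The genes around the hormones were then tested as pathway lists, with limma adjusted p-values over all genes tested. Of 212 listed genes, 179 were tested in each comparison. Without fenofibrate 1 was lower and 7 were higher in B2D, 4.47% of those tested beside 2.7% of all genes, and with fenofibrate 10 were lower and 16 higher in B2D+FF, 14.5% beside 4.45%. The lists were chosen with earlier results of these data known, so nothing is read from a share above that of all genes. The shares also depend on expression level. At a mean FPKM of at least 5, 29 of 129 listed genes and 461 of 4948 genes were called with fenofibrate. The limma contrast of both diet effects called 0 of 175, of which 26 had an unadjusted p under 0.05 and array weights called 1. In 1 fit of all 4 groups, calls with fenofibrate were lost for Apoa4, Igfals (limma adjusted p = 0.182), Cidec (0.082), Fkbp5 (0.43), Scd1 (0.117) and Cfd (0.135), and calls without it for Atf5 (0.0691), Sesn2 (0.12) and Lcn2 (0.0777). Rescaling to 1 upper quartile ended the calls without fenofibrate of Klb (limma adjusted p = 0.158), Atf5 (0.0956), Sesn2 (0.0818), Hamp2 (0.0868) and Lcn2 (0.0895). With no filter on low values the counts were 1 (Inhbb) and 11, and the calls lost among the named genes had limma adjusted p-values from 0.0545 (Cidec) to 0.156 (Lcn2).

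Among the relatives of Inhbe in the activin family, Inhbb, which encodes the βB subunit of activins and inhibins, rose in both experiments. It was at 0.304, 0.473, 1.08, 0.261 and 0.393 FPKM in Ctrl and 1.52, 3.11, 2.53, 2.60 and 3.72 in B2D, and at 0.201, 0.843, 0.311 and 0.388 in Ctrl+FF and 2.28, 3.55, 1.93 and 2.43 in B2D+FF. Every mouse on the deficient diet was above every control mouse of its experiment, on 14 to 91 reads in control libraries and 119 to 307 in deficient ones. With fenofibrate, the Ctrl+FF mean of 0.436 FPKM was under the filter, which Inhbb passed through B2D+FF. The log2 fold changes were 1.29 ± 0.18 (SE, limma adjusted p = 0.00494) and 1.30 ± 0.17 (SE, limma adjusted p = 0.00438). They were 2.30 and 2.40 with a pseudocount of 0.1, and the call held in all 10 and all 8 fits that each left out 1 library. Of the 20 listed genes of the activin axis, 17 and 16 were tested, and Inhbb was the only one called in either comparison. Inhbc, which encodes the βC subunit and like Inhbe is made mainly by the liver, had log2 fold changes of -0.74 and -0.64 and was not past the threshold (limma adjusted p = 0.0782 and 0.0567).

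In the growth hormone and IGF axis, Ghr, the growth hormone receptor, fell in both experiments. It was at 38.6 to 59.98 FPKM in Ctrl and 22.4 to 34.3 in B2D, and at 34.2 to 40.6 in Ctrl+FF and 18.3 to 26.7 in B2D+FF, with no overlap of diets. The log2 fold changes were -0.73 ± 0.15 (SE, limma adjusted p = 0.0265) and -0.68 ± 0.12 (SE, limma adjusted p = 0.0182). The call held in 5 of the 10 and 5 of the 8 fits that left out 1 library, with adjusted p-values up to 0.0785 without Ctrl mouse 2 and 0.0677 without Ctrl+FF mouse 1. Igfals, which holds IGFs in a stable blood complex, fell with fenofibrate from 28.6 ± 4.06 to 19.5 ± 1.76 FPKM (SD, n = 4 each; limma adjusted p = 0.0333), a call that held in 1 of 8 such fits and reached 0.0873 without B2D+FF mouse 4. Igf1 itself had log2 fold changes of -0.05 and -0.20 and was not past the threshold, and 15 and 14 of the 18 listed genes were tested, with 1 and 2 called lower and 0 higher.

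Of the receptors and partners of FGF21, 4 of 6 were tested. Klb, which encodes the co-receptor β-Klotho, rose without fenofibrate from 8.67 ± 0.89 to 12.1 ± 1.34 FPKM (SD, n = 5 each; log2 fold change 0.44 ± 0.10 SE, limma adjusted p = 0.0459), with every B2D mouse above every Ctrl mouse. The call held in 1 of the 10 fits that left out 1 library and reached an adjusted p of 0.125 without Ctrl mouse 2. With fenofibrate, Klb was at 5.35 ± 0.37 and 5.71 ± 0.13 FPKM (SD, n = 4 each) and was not called. Fgfr4, the FGF receptor gene with the highest FPKM of the 4 listed, was at 8.23 and 7.47 FPKM and at 3.62 and 4.54 FPKM and was not called either.

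Among the lipases and apolipoproteins on which ANGPTL proteins act, 0 of the 12 genes were called by limma without fenofibrate, where 3 had an unadjusted p under 0.05 and limma voom called 0. With fenofibrate, Apoa4 rose from 24.3 ± 4.56 to 59.2 ± 15.8 FPKM (SD, n = 4 each; limma adjusted p = 0.0103), and Lipc, hepatic lipase, fell from 44.4 ± 5.76 to 28.8 ± 4.89 (SD, n = 4 each; limma adjusted p = 0.0448). The Lipc call held in 2 of 8 fits without 1 library and reached an adjusted p of 0.123 without Ctrl+FF mouse 2, whereas that of Apoa4 held in all 8 and was lost with all 4 groups in 1 fit (limma adjusted p = 0.135). Lpl, the target of ANGPTL4 and ANGPTL8, was at 1.78 and 2.85 FPKM in Ctrl and B2D and at 34.2 and 29.9 in Ctrl+FF and B2D+FF, with no call between the diets.

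The receptors through which GDF15 and LEAP2 act were at the floor, as named after their values were seen. Gfral and its partner Ret, and the ghrelin receptor Ghsr, had 0 reads in all 18 libraries, which allows up to 3 reads in each, for counting error only. Ghrl, which encodes ghrelin, reached at most 0.488 FPKM.

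Targets of ATF4, the factor of the integrated stress response that acts on Fgf21, were called higher for 2 of 18 tested genes without fenofibrate and lower for 0. They were Atf5, which encodes another stress-responsive transcription factor, from 153 ± 21.6 to 238 ± 36.2 FPKM (SD, n = 5 each; limma adjusted p = 0.0378), and Sesn2, an inhibitor of mTORC1, from 2.19 ± 0.30 to 3.51 ± 0.68 (SD, n = 5 each; limma adjusted p = 0.048). Of the 29 listed genes, 11 were under the filter there and were not tested. Chac1, which encodes a glutathione-degrading enzyme and is named after its values were seen, was one of them, and averaged 0.785 FPKM in Ctrl (lowest 0.372) and 0.173 in B2D (highest 0.251), without overlap. With fenofibrate, 4 of 19 tested genes rose and 0 fell, and 10 of the 29 were not tested. Over all 29, tested or not, the mean FPKM was higher on the deficient diet for 17 and lower for 12 without fenofibrate, and higher for 27 and lower for 2 with it. Some of the genes not tested were near 0 FPKM, where the direction carries little. Of the tested genes, 14 of 18 without and 19 of 19 with fenofibrate had a log2 fold change above 0, beside 49.8% and 52.8% of all genes. The list was chosen with earlier results of these data known, so nothing is read from these counts. Psat1, an enzyme of serine synthesis, rose from 0.264 ± 0.125 to 1.19 ± 0.376 FPKM (SD, n = 4 each; limma adjusted p = 0.0156), Trib3, a pseudokinase, from 4.76 ± 0.94 to 9.90 ± 2.07 (limma adjusted p = 0.0164) and Slc3a2, an amino acid transporter subunit, from 8.36 ± 0.62 to 14.6 ± 3.18 (limma adjusted p = 0.0239). Psat1 passed the filter only through B2D+FF and rested on 6 to 27 reads in Ctrl+FF and 77 to 119 in B2D+FF. Atf4 mRNA itself had log2 fold changes of 0.08 and 0.49 and was not past the threshold. The calls of Atf5 and Sesn2 held in 3 and 2 of 10 fits without 1 library, with adjusted p-values up to 0.105 without Ctrl mouse 4 and 0.118 without Ctrl mouse 2, and those of Psat1, Trib3 and Slc3a2 in 6, 6 and 4 of 8, with adjusted p-values up to 0.0793 without Ctrl+FF mouse 1.

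**Figure D4:**
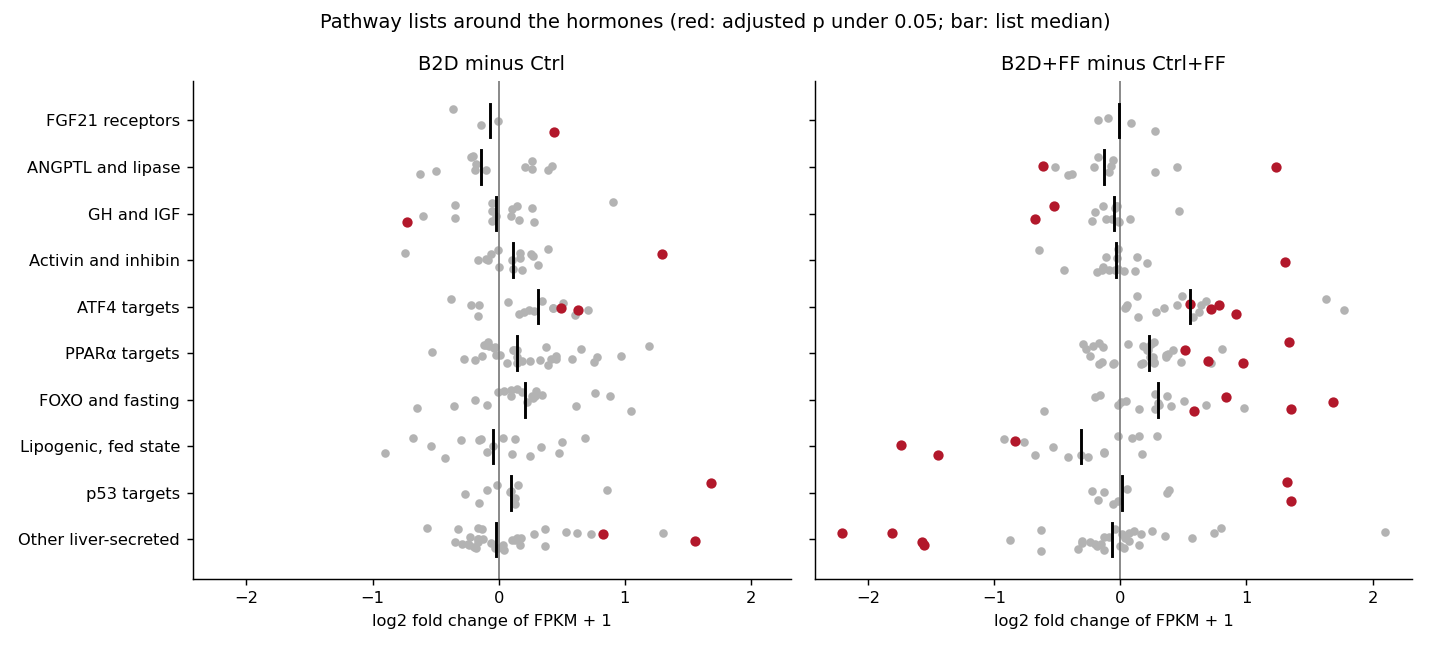
Log2 fold change of FPKM + 1 (horizontal axis) of each tested gene of 10 pathway lists, for B2D minus Ctrl (left) and B2D+FF minus Ctrl+FF (right). Red points passed a limma adjusted p under 0.05 over all genes, gray points did not, and black bars are medians over the tested genes of a list. More genes are red with fenofibrate (26) than without (8).

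Targets of PPARα, the receptor that fenofibrate activates and a regulator of Fgf21 and Angptl4, were not called by limma without fenofibrate (0 of 32). There, 10 had an unadjusted limma p under 0.05, 9 of them higher and 1 lower in B2D, and limma voom on the recovered reads called 3 higher. With fenofibrate, 4 of 34 rose and 0 fell. Ucp2, a mitochondrial carrier, rose from 15.8 ± 1.53 to 26.0 ± 1.46 FPKM (SD, n = 4 each; limma adjusted p = 0.00487), Aqp3, a glycerol channel, from 6.31 ± 1.98 to 17.3 ± 3.79 (limma adjusted p = 0.0136) and Cidec, a lipid droplet protein, from 67.3 ± 13.6 to 132 ± 23.5 (limma adjusted p = 0.0187). The calls of Ucp2 and Aqp3 held in all 8 fits without 1 library and that of Cidec in 4, with an adjusted p up to 0.0689 without Ctrl+FF mouse 1. Ppara had log2 fold changes of -0.03 and -0.30 and was not past the threshold.

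The FOXO, glucagon and glucocorticoid genes of fasting, to which Igfbp1 belongs by regulation, were not called by limma without fenofibrate (0 of 20, with 6 at an unadjusted p under 0.05), nor by limma voom. With fenofibrate, 4 of 20 rose and 0 fell. They included Tat, an enzyme of tyrosine breakdown, from 299 ± 84.7 to 751 ± 180 FPKM (SD, n = 4 each; limma adjusted p = 0.0188), Lpin1, a phosphatidate phosphatase, from 6.56 ± 3.76 to 21.99 ± 5.96 (limma adjusted p = 0.0208) and Fkbp5, a target of the glucocorticoid receptor, from 10.1 ± 1.33 to 15.6 ± 2.05 (limma adjusted p = 0.0275). The calls of Tat, Lpin1 and Fkbp5 held in 7, 5 and 2 of 8 fits without 1 library. The highest limma adjusted p was 0.0577 for Tat and 0.0927 for Fkbp5, both without Ctrl+FF mouse 1, and 0.0733 for Lpin1 without Ctrl+FF mouse 2.

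Lipogenic genes of the fed state are induced by insulin, as is Angptl8. Of 17 tested, 0 were called by limma or limma voom without fenofibrate, where 6 had an unadjusted limma p under 0.05, 3 in each direction. With fenofibrate 3 fell and 0 rose. Srebf1, which encodes the lipogenic factor SREBP-1, was at 27.5, 30.1, 23.7 and 30.04 FPKM in Ctrl+FF and 7.61, 11.6, 8.43 and 11.1 in B2D+FF, with a log2 fold change of -1.45 ± 0.14 (SE, limma adjusted p = 0.00206). Mlxipl, which encodes the carbohydrate-responsive factor ChREBP, fell from 31.0 ± 1.63 to 17.0 ± 1.83 FPKM (SD, n = 4 each; limma adjusted p = 0.00269). Scd1, a fatty acid desaturase, fell from 2287 ± 765 to 667 ± 197 (SD, n = 4 each; limma adjusted p = 0.0181). The calls of Srebf1 and Mlxipl held in all 8 fits without 1 library and that of Scd1 in 5, with an adjusted p up to 0.0647 without Ctrl+FF mouse 2. Angptl8 itself did not separate between these diets.

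**Figure D5:**
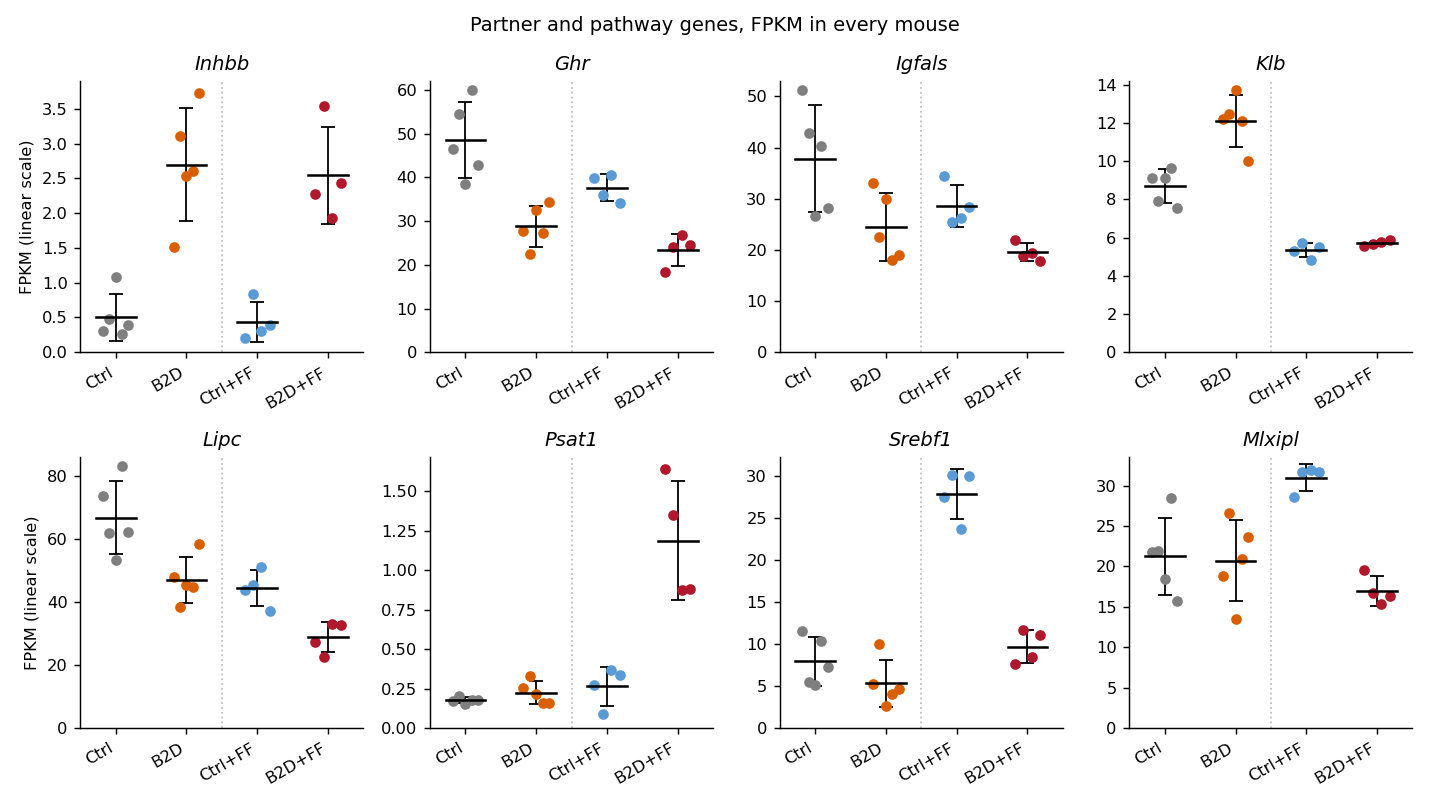
FPKM (vertical axis, linear, from 0) of 8 partner and pathway genes in each mouse of the 4 groups, with the group mean as a horizontal line and the SD as a bar. Inhbb and Ghr separate the diets in both experiments, in opposite directions, and Srebf1 and Mlxipl separate them with fenofibrate.

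Targets of p53, which also acts on Gdf15, were called for 1 of 11 genes without and 2 of 10 with fenofibrate, all higher. Cdkn1a, an inhibitor of the cell cycle, rose from 1.15 ± 0.827 to 6.13 ± 3.62 FPKM in B2D (SD, n = 5 each; limma adjusted p = 0.0221), and the call held in 7 of 10 fits without 1 library, with 0.0721 without Ctrl mouse 2. With fenofibrate, Trp53inp1 rose from 8.76 ± 1.30 to 24.2 ± 6.54 (SD, n = 4 each; limma adjusted p = 0.0042) and Btg2, an antiproliferative gene, from 3.56 ± 0.672 to 11.01 ± 5.26 (limma adjusted p = 0.0203), the latter call held in 5 of 8 such fits and reached 0.071 without Ctrl+FF mouse 1.

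Among 34 tested genes of other proteins secreted by the liver, 2 rose in B2D and 4 fell in B2D+FF. Lcn2, which encodes a siderophore-binding protein, rose from 1.15 ± 0.384 to 2.92 ± 1.28 FPKM (SD, n = 5 each; limma adjusted p = 0.0477), a call that held in 1 of 10 fits without 1 library and reached 0.135 without Ctrl mouse 4, and the neutrophil markers given above were also higher in B2D. Hamp2 rose from 12.5 ± 8.98 to 35.9 ± 13.5 (SD, n = 5 each; limma adjusted p = 0.0384), and held in 2 of 10, with 0.109 without Ctrl mouse 4. With fenofibrate, Serpina6, which encodes corticosteroid-binding globulin, fell from 43.4 ± 3.97 to 15.5 ± 7.43 FPKM (SD, n = 4 each; limma adjusted p = 0.0268), a call that held in 3 of 8 and reached 0.0849 without Ctrl+FF mouse 1. Cfd, which encodes the complement protease adipsin, fell from 14.02 ± 5.85 to 2.29 ± 1.54 (limma adjusted p = 0.0182), held in 5 of 8 and reached 0.0651 without Ctrl+FF mouse 2. Adipocytes also express Cfd, and their markers summed to 0 to 2.80 FPKM in Ctrl+FF and 0.0104 to 0.341 in B2D+FF. By mouse, the sums were 2.80, 0.127, 0.0588 and 0 in Ctrl+FF, where Cfd was at 19.6, 17.2, 13.1 and 6.21 FPKM. In B2D+FF they were 0.341, 0.0106, 0.0104 and 0.1165, where Cfd was at 2.10, 0.5865, 2.15 and 4.34. The part of adipocytes in the values of Cfd was not tested. The acute-phase gene Saa2 fell from 4.52 ± 2.41 to 0.461 ± 0.0977 (limma adjusted p = 0.0103) and held in all 8. Its B2D+FF mean was under the filter, which Saa2 passed through Ctrl+FF. It rested on 78 to 314 reads in Ctrl+FF and 16 to 31 in B2D+FF. Hamp2 and Saa2 have near-identical copies between which the counting may have split reads, so their values are uncertain.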

How the data were processed

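The authors made mRNA libraries from total liver RNA, sequenced paired ends, mapped the reads to mm10 with STAR, summarized them by gene with featureCounts and used DESeq2 for their own comparisons (versions not given in the sources used here). They deposited 1 table of FPKM per experiment, called RPKM in their methods, with gene identifiers, coordinates and gene length, and the values were used as deposited. In every library 100% of values were whole reads within 0.05, which gave the reads behind each value. Each library is 1 mouse, and mice were numbered within groups in the order of the samples.

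For genes averaging an FPKM of 0.5 or more, log2(FPKM + 1) was compared by limma 3.58.1 (R 4.3.3, trend), each table alone, with Benjamini-Hochberg adjustment at 0.05. The contrast of both diet effects used 1 fit of 18 libraries. Permutation tests used numpy 2.4.6. The limma test of both diet comparisons, and no other step, was tried on simulated data with known changes. The 8 genes, the pathway lists (from general knowledge) and the motifs were chosen with earlier results of these data known. All 8 genes are named, with up to 3 called genes per list and comparison with the smallest adjusted p, receptors and partners of the hormones, Ppara and Atf4, and the 3 closest genes by r. Of genes listed, Hjv, Chi3l1 and Tf were not matched. Alternatives were quantile normalization, rescaling to 1 upper quartile, a pseudocount of 0.1, omitting the filter, a filter at a mean FPKM of 5, array weights, limma voom on recovered reads, all 4 groups in 1 fit and each library left out.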

Additional observations from a re-analysis of the deposited data

Results flagged for a closer look

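Igfbp2 differed between the experiments. All 5 B2D mice were below the Ctrl mean and all 4 B2D+FF mice above the Ctrl+FF mean, with log2 fold changes of -0.36 (-0.19 after quantile normalization) and 0.58. The limma contrast of both effects was 0.95 ± 0.27 (SE), which was not past the adjusted threshold but was with array weights, and the difference was not tested independently of the choice of the gene.

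In the 32 groups of mice of the 8 hormone genes, none held a mouse whose gap to the nearest other exceeded Dixon's critical value. In 112 groups of the 28 named pathway genes, 8 did, and chance gives about 1 in 20. In Ctrl, mouse 3 was highest in Inhbb (1.08 FPKM against 0.261 to 0.473 in the others) and in Hamp2 (28.4 against 6.73 to 9.93), and mouse 2 was lowest in Lpin1 (7.14 against 16.1 to 18.4). In B2D, mouse 2 was highest in Cfd (28.5 FPKM against 0 to 0.279), where adipocyte markers summed to 7.46 FPKM, and mouse 5 in Saa2 (8.81 against 0.882 to 1.83). In Ctrl+FF, mouse 1 was lowest in Mlxipl (28.6 FPKM against 31.7 to 31.97) and mouse 3 in Scd1 (1142 against 2605 to 2717). In B2D+FF, mouse 2 was highest in Trp53inp1 (34.0 FPKM against 20.3 to 21.4).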

How the results depend on the processing

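The log2 fold changes of the 8 hormone genes moved by less than the SD between mice under every alternative run (271 values), and no called gene reversed. Leaving out 1 mouse of 4 or 5 cannot move a group mean by that much, so those fits could not exceed it and show no stability. When 1 library was left out, the sign changed for Angptl8 and Inhbe in both comparisons and for Angptl4 with fenofibrate. Fgf21 and Leap2 were past the threshold with fenofibrate in all 16 alternative fits. The genes were chosen on differences in these same values, so the refits are a description and lend no support to the differences. Calls among the 8 without fenofibrate rose from 0 to 1 (Igfbp1) with a mean FPKM of at least 5, with limma voom on recovered reads (1) and between 0 and 1 when 1 library was left out (without Ctrl mouse 3), and with fenofibrate they lay between 2 and 3, the third being Igfbp1. Over all genes without fenofibrate, the count of 313 became 67 with no filter, 208 with upper quartile scaling and 731 with all 4 groups in 1 fit, and from 98 (without Ctrl mouse 4) to 332 without 1 library. With fenofibrate, 529 became 272 with no filter and 885 with array weights, and from 175 (without Ctrl+FF mouse 1) to 596. The contrast's 16 became 25 with no filter, 6 at a mean FPKM of at least 5 and 112 with array weights, and from 8 to 44. Pathway genes without fenofibrate went from 8 to 1 (no filter), 5 (upper quartile), 13 (voom), 15 (all 4 groups) and 1 (without Ctrl mouse 4) to 9, and with fenofibrate from 26 to 11 (no filter) and 8 (without Ctrl+FF mouse 1) to 28. Pairs past the threshold by r went from 1 to 2 without the 2 farthest libraries, where r of Fgf21 and Inhbe was 0.760 and no longer past it. Of 488 alternative values for named pathway genes, 351 kept their call and 137 lost it with the same direction. Those of Inhbb, Ucp2, Aqp3, Srebf1, Mlxipl, Trp53inp1 and Saa2 held in all fits run. Tests without filter adjust over more genes; other causes were not tested. No paired analysis was possible because the mouse numbers in the labels are not shared between groups. Depth limits Gdf15 (from 27 reads), Fgf21 in Ctrl+FF (from 18), Saa2 in B2D+FF (from 16), Inhbb (from 14) and Psat1 in Ctrl+FF (from 6).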
